A study of Mus musculus with 8 samples.

Results

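The genes described here encode the subunits of integrins and the chains of laminins. They were found by symbol, as all probe sets annotated to exactly 1 gene that is an integrin alpha or beta subunit or a laminin alpha, beta, or gamma chain. This gave 76 of 45037 probe sets and 35 of 18193 genes, of which 25 encode integrins (16 alpha and 9 beta subunits) and 10 encode laminins. Where several probe sets measured 1 gene, the one whose SD over the 8 arrays was largest stood for it, whatever the groups. Itga11 and Itgad had no probe set annotated to them alone and were not analysed here.

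The arrays hold RNA of colonic epithelial cells from 8 male C57BL/6 mice kept under SPF conditions, 1 array per mouse. All mice received metronidazole and ciprofloxacin before colonization at 8 wk of age and were sampled at 12 wk, 4 wk after colonization. 4 mice carried the wild-type strain of B. theta (BTWT), and 4 carried the deletion mutant of the MAFF locus (BTΔMAFF, BTDMAFF in the labels), a single mutant strain. The mice were not germ free, and the labels name neither cage nor litter, which could not be taken into the fit. Living cells with EpCAM and without CD45 were sorted, and each deposited value is the log2 expression of a probe set minus its median over the 8 arrays. These values show how mice differ from each other and give neither an absolute level nor a detection call.

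Integrins are transmembrane receptors made of 1 alpha and 1 beta subunit, which bind proteins of the extracellular matrix or of other cells and link them to the cytoskeleton. Laminins are trimers of an alpha, a beta, and a gamma chain and form the sheet of the basement membrane on which epithelial cells sit. In the gut epithelium, the integrin of Itga6 and Itgb4 holds cells to laminin at hemidesmosomes, that of Itga3 and Itgb1 binds the same ligands, and several alpha subunits and beta 2 are typical of leukocytes.

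Of the 8 arrays, BTWT replicate 2 and BTΔMAFF replicate 4 lay on the opposite side of the first principal component from the other 6, and values without both are given beside Itgb4, Itga3, Lamb3, Lamc1, Lamb1, and Ilk, whose unadjusted p crossed 0.05 when they were left out. Itga4 crossed 0.05 as well and is described with the leukocyte integrins. Epcam, the sorting marker, had a difference of 0.10 on the log2 scale (BTWT minus BTΔMAFF, standard error 0.23), with 1 of its 2 probe sets on either side of 0. Ptprc, which encodes CD45, had one of -0.01 (standard error 0.03) and ranged from -0.04 to 0.07 over the 8 mice.

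Itgb4, Itgb5, and Itga3 were lower in the cells of BTWT-colonized mice at an unadjusted p under 0.05, and no integrin or laminin gene was higher at that level. With limma and Benjamini-Hochberg adjustment over all 45037 probe sets, none of the 35 genes passed an adjusted p of 0.05, and neither did any other probe set (0%). At an unadjusted p under 0.05, limma gave 2295 probe sets. The 3 lower genes of 35 stand against 3.37% of all genes lower by the same rule, and the 0 higher genes against 2.35% of all genes. Among the 76 member probe sets, 6 were lower at an unadjusted p under 0.05, against 2.86% of all probe sets, and 0 were higher. These 6 are 3 of Itgb5, 2 of Itga3, and 1 of Itgb4, so they repeat the same 3 genes on the same arrays. In 2 of the 35 genes every BTWT mouse lay below every BTΔMAFF mouse, against 1.84% of all genes, and in 0 every BTWT mouse lay above, against 1.30% of all genes. None of the 35 combined that p with a change of more than 2-fold, as 0.923% of all genes did. In bulk RNA of sorted cells, fewer cells of a type and less RNA per cell cannot be told apart.

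**Figure D1:**
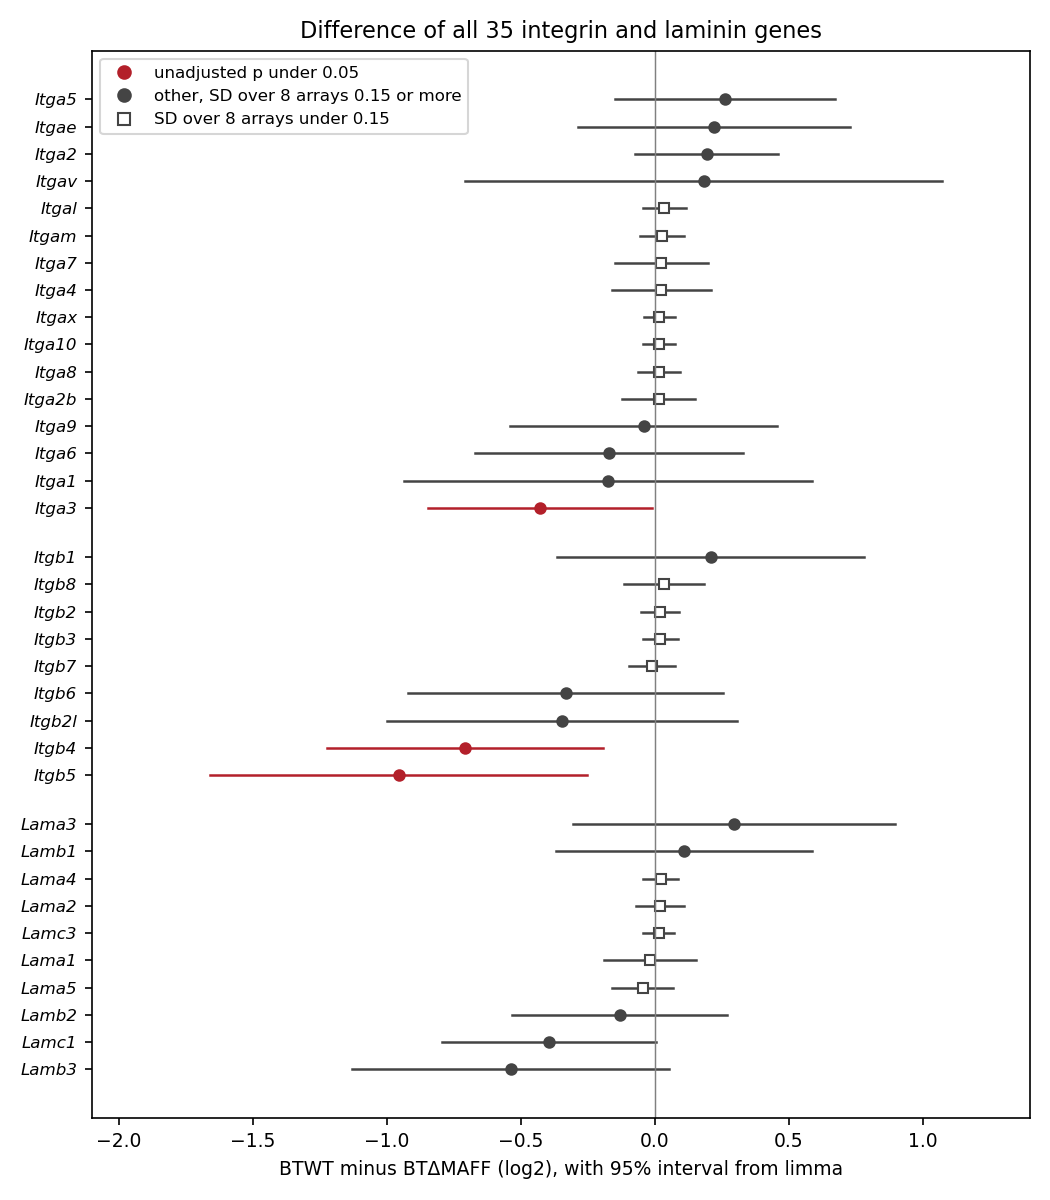
Difference between BTWT and BTΔMAFF on the log2 scale (points) with the 95% interval from limma (lines) for all 35 genes, in order of size within integrin alpha subunits, integrin beta subunits, and laminin chains. The intervals of Itga3, Itgb4, and Itgb5 (red) lie below 0, and open squares mark the 17 genes with an SD under 0.15 over the 8 arrays.

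The laminin receptors come first. Itgb4, the beta subunit that anchors hemidesmosomes through its long cytoplasmic domain (GRCm38.p6, chr11:115974725-116008412), had centred log2 values of -1.05, -0.33, -0.68, and -0.03 in BTWT replicates 1 to 4 and of 0.15, 0.03, 0.16, and 0.41 in BTΔMAFF replicates 1 to 4. The groups did not overlap. They came as close as 0.03 to either side of 0, in BTWT replicate 4 and BTΔMAFF replicate 2, and since the median of the 8 mice is 0 by construction, groups that do not overlap always face each other at equal distances from it. BTWT mice had a mean of -0.52 ± 0.44 (SD, n = 4) and BTΔMAFF mice one of 0.19 ± 0.16 (SD, n = 4), a 1.63-fold lower level with BTWT. The log2 difference was -0.71 (standard error 0.22, 95% interval -1.22 to -0.19), with adjusted p = 0.730 and unadjusted p = 0.0140 from limma. Itgb4 has 1 probe set. With single mice left out its difference ran from -0.87 to -0.53 and stayed under an unadjusted p of 0.05 in all 8 cases, but without BTWT replicate 2 and BTΔMAFF replicate 4 together it had an unadjusted p of 0.0553.

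Itga6, the alpha subunit that pairs with Itgb4, differed by less than its spread between mice. Its values were 0.08, 0.06, -0.39, and -0.27 in BTWT and 0.48, -0.06, -0.44, and 0.19 in BTΔMAFF, and the lowest mouse of all was BTΔMAFF replicate 3. The log2 difference was -0.17 (standard error 0.21, 95% interval -0.67 to 0.33), and its other probe set gave -0.10. Within each mouse, the value of Itgb4 minus that of Itga6 averaged -0.39 ± 0.56 (SD, n = 4) with BTWT against 0.15 ± 0.38 (SD, n = 4) with BTΔMAFF, in overlapping ranges.

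Itga3, the alpha subunit of the other main laminin receptor of epithelia (chr11:95044475-95076844), had values of -0.22, -0.28, -0.04, and -0.17 in BTWT and of 0.05, 0.04, 0.80, and 0.11 in BTΔMAFF. The groups did not overlap in the probe set used, but they did in the other probe sets of Itga3. BTΔMAFF replicate 3 stood far above the other 3 mice of its group. The log2 difference was -0.43 (standard error 0.18, 95% interval -0.84 to -0.01), 1.35-fold lower in BTWT, with adjusted p = 0.828 and unadjusted p = 0.0457 from limma. All 3 probe sets of Itga3 were below 0, from -0.43 to -0.18, and 2 of them reached an unadjusted p under 0.05. An unadjusted p under 0.05 was kept in 7 of 19 alternatives and in 3 of the 8 that left out 1 mouse, where the difference ran from -0.50 to -0.25. Without BTWT replicate 2 and BTΔMAFF replicate 4 together, Itga3 had a difference of -0.44 and an unadjusted p of 0.122. Its usual partner Itgb1, the beta subunit shared by most matrix receptors, had values of 0.63, 0.52, -0.27, and 0.03 in BTWT and of -0.03, -0.11, -0.25, and 0.46 in BTΔMAFF. All 6 probe sets of Itgb1 were above 0, from 0.02 to 0.25, and none reached an unadjusted p under 0.05. Itga7, which binds laminin in muscle, varied little, with a difference of 0.03.

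Itgb5 gave the largest difference of the 35 genes. This beta subunit pairs with Itgav and binds vitronectin (chr16:33829665-33949338). Its values were -0.85, -1.19, 0.12, and -0.49 in BTWT and 0.52, 0.45, 0.55, and -0.12 in BTΔMAFF. 3 of 4 BTWT mice lay below all BTΔMAFF mice, and the groups overlapped through BTWT replicate 3 and BTΔMAFF replicate 4, the latter far below the other 3 mice of its group. BTWT mice averaged -0.60 ± 0.56 (SD, n = 4) and BTΔMAFF mice 0.35 ± 0.32 (SD, n = 4), a 1.94-fold lower level with BTWT. The log2 difference was -0.95 (standard error 0.30, 95% interval -1.66 to -0.25), with adjusted p = 0.741 and unadjusted p = 0.0149 from limma. All 4 probe sets of Itgb5 were below 0, from -0.95 to -0.52, and 3 of them reached an unadjusted p under 0.05. It did so in each of the 19 alternatives, with a difference from -1.20 to -0.66.

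Other genes of this branch were less clear. Itgav, the alpha subunit shared by Itgb5 and Itgb6, had values of -0.02, 0.54, -0.88, and 0.37 in BTWT and of -0.22, 0.34, 0.02, and -0.86 in BTΔMAFF, so each group held 1 mouse far below the rest. These values are those of the probe set used. In another, with a difference of 0.31, BTΔMAFF replicate 4 was the highest of its group at 0.27, and BTWT replicate 3 was at -0.05. In a further one, BTWT replicate 3 was again far below its group, at -0.43. Of the 5 probe sets of Itgav, 3 were above 0 and 2 below. In the probe sets used, the value of Itgb5 minus that of Itgav averaged -0.60 ± 1.15 (SD, n = 4) with BTWT against 0.53 ± 0.30 (SD, n = 4) with BTΔMAFF, again with overlap. Itgb6, a beta subunit of epithelia whose receptor activates latent TGF-β, had values of -0.82, 0.01, -0.01, and -0.15 in BTWT and of -0.46, 0.28, 0.31, and 0.23 in BTΔMAFF. Its difference was -0.33 (standard error 0.25, unadjusted p = 0.225 from limma), and -0.40 with its other probe set. 3 of 4 BTΔMAFF mice lay above all BTWT mice, and BTΔMAFF replicate 1 lay below 3 of them. Itgb8, which binds the same latent form of TGF-β, had a difference of 0.04 with little variation.

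**Figure D2:**
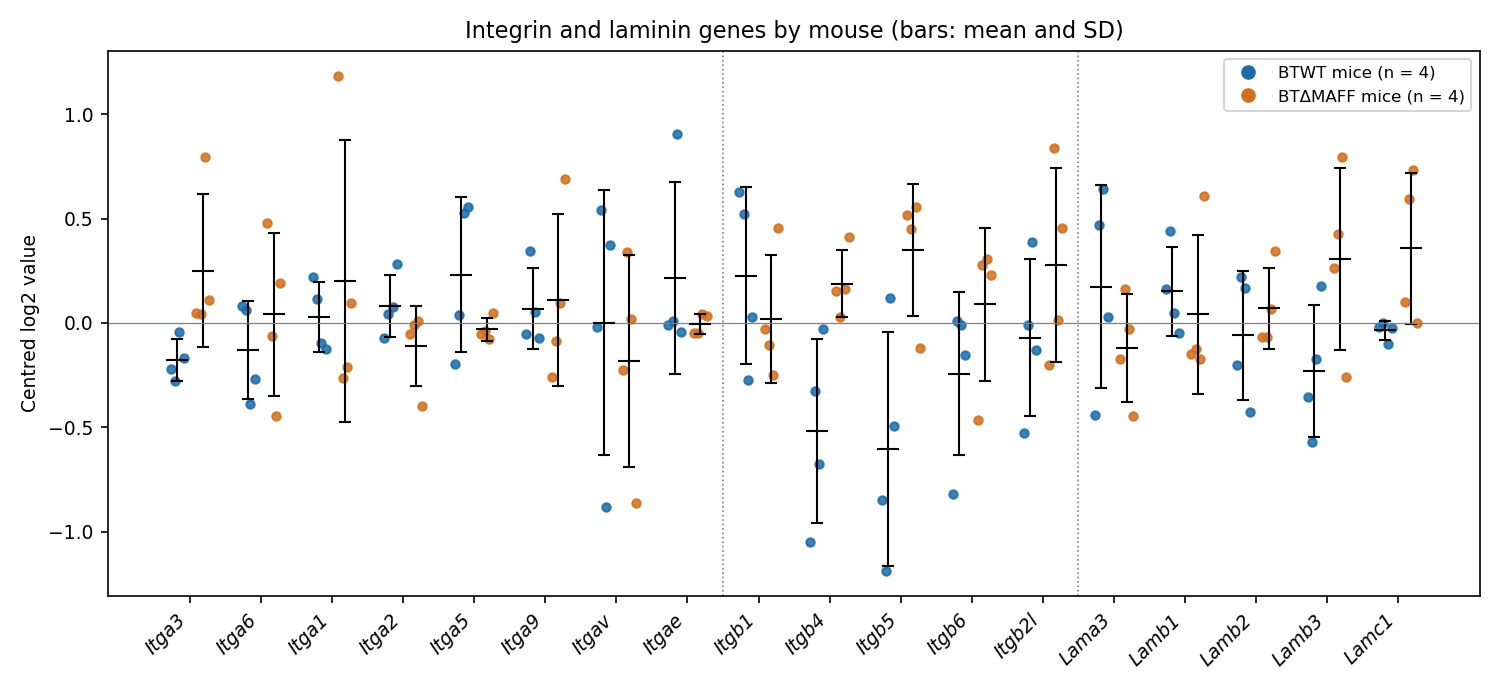
Centred log2 values of single mice (points) and group means with their SD (bars, n = 4) for the 18 genes with an SD of 0.15 or more, in the order of integrin alpha subunits, integrin beta subunits, and laminin chains. The BTWT mice lie below the BTΔMAFF mice without overlap for Itgb4 and for the probe set of Itga3 shown, and Itgb5 overlaps through 1 mouse of each group.

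Promoter sequence is shown for Itga3 and Itgb5, the genes past the unadjusted threshold with an entry in the RefSeq promoter table (GRCm38.p6), as the bases upstream of the outermost annotated start, 5′ to 3′ on the strand of the gene. The first is chr11:95076845-95076964 on the minus strand, and the second chr16:33829415-33829664 on the plus strand. Capitals mark GC boxes, the motif GGGCGG or its reverse complement.
Itga3: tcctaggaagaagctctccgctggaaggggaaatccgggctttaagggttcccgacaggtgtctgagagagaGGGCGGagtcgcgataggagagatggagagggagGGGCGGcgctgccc
Itgb5: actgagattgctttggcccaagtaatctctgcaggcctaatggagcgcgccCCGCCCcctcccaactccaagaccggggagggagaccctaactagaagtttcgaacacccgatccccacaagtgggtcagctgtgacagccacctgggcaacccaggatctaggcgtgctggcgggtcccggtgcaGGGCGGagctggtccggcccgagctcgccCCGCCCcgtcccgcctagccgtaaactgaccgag

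The 120 bases of Itga3 held 2 GC boxes, a motif found in the first 120 bases of 12.8% of all windows. The 250 bases of Itgb5 held 3, and the first 250 bases of 32.7% of windows held the motif. On both strands, neither held the AP-1 motif TGANTCA (3.08% and 6.75% of windows), the E-box CACGTG (2.19% and 6.02%), or TATAAA (6.04% and 12.4%); these motifs do not overlap each other. The GC content was 62.5% and 65.2%, against medians of 50.8% and 52.4% over all windows. The first 120 bases of a window are those farthest from its transcript start, while the bases of Itga3 end at its outermost start. Shares and median for 120 bases can thus come from another position than that of Itga3. A match of letters is a description and not a bound site.

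Among the other integrin alpha subunits, collagen and fibronectin receptors did not reach an unadjusted p under 0.05. Itga2, the collagen receptor subunit of epithelia, had values of -0.07, 0.04, 0.08, and 0.28 in BTWT and of -0.05, -0.01, 0.01, and -0.40 in BTΔMAFF, with a difference of 0.19 (standard error 0.11). Itga1, another collagen receptor subunit, had a difference of -0.17, which in the probe set used rested on BTΔMAFF replicate 1 at 1.19 and was 0.15 without that mouse. The other probe set of Itga1 had a difference of -0.15, with BTΔMAFF replicate 1 at -0.01 and BTΔMAFF replicate 4 highest at 0.53. Itga5, the fibronectin receptor subunit, was at 0.53 and 0.55 in BTWT replicates 3 and 4, while the other 6 mice lay between -0.20 and 0.05. Its difference was 0.26 (standard error 0.17, unadjusted p = 0.175 from limma), and it reached an unadjusted p of 0.0218 without BTWT replicate 1. Its other 3 probe sets had differences of 0.01 to 0.03. Itga9, which binds tenascin and other ligands, had a difference of -0.04 and was highest in the 2 arrays that stood apart, at 0.35 and 0.69.

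Subunits of leukocyte integrins varied little. Itgal, Itgam, Itgax, Itga4, Itgb2, and Itgb7, which are typical of T cells, granulocytes, macrophages, and dendritic cells, had differences between -0.01 and 0.04. The exceptions were Itgae and Itgb2l. Itgae, which pairs with Itgb7 and binds E-cadherin on epithelial cells, was at 0.91 in BTWT replicate 3 and between -0.05 and 0.04 in the other 7 mice. Its difference of 0.22 became -0.01 without that mouse, and its other probe set had a difference of 0.03. In the same mouse Gzma, a granzyme of intraepithelial lymphocytes, was at 2.79 and Laptm5, a lysosomal protein of leukocytes, at 3.07. These were the only genes over 0.5 there among 7 measured markers of intraepithelial lymphocytes and 11 of leukocytes, and their part in the value of Itgae was not tested. Itgb2l, a relative of Itgb2, had a difference of -0.35 (standard error 0.28), and its 3 probe sets were below 0, from -0.35 to -0.13. Over all 8 arrays Itga4 had a difference of 0.025, with an unadjusted p of 0.759 from limma. Without both arrays that stood apart it was higher with BTWT at an unadjusted p under 0.05, against 7.55% of all genes. It also reached that p without BTΔMAFF replicate 4 alone and with array weights.

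None of the 10 laminin genes reached an unadjusted p under 0.05, and 2 came close. Lamb3, the beta chain of the laminin that anchors hemidesmosomes (chr1:193294353-193343878), had values of -0.35, -0.57, -0.17, and 0.17 in BTWT and of 0.26, 0.42, 0.80, and -0.26 in BTΔMAFF. 3 BTΔMAFF mice lay above all BTWT mice, and BTΔMAFF replicate 4 lay among the lower ones. The difference was -0.54 (standard error 0.25, 95% interval -1.13 to 0.05), 1.45-fold lower in BTWT, with adjusted p = 0.828 and unadjusted p = 0.0684 from limma. Without BTΔMAFF replicate 4 it was -0.73 with an unadjusted p of 0.0143, and without BTWT replicate 4 it was -0.67 with 0.0371. Without both arrays that stood apart, Lamb3 had a difference of -0.61 with an unadjusted p of 0.0309. Lama3, the alpha chain of the same trimer, had values of -0.44, 0.47, 0.64, and 0.03 in BTWT and of -0.17, 0.16, -0.03, and -0.45 in BTΔMAFF, with a difference of 0.29 (standard error 0.25). Without BTWT replicate 1 the difference of Lama3 was 0.50, with an unadjusted p of 0.0433 from limma. Its other probe set had a difference of 0.08. Within each mouse, the value of Lamb3 minus that of Lama3 averaged -0.41 ± 0.61 (SD, n = 4) with BTWT against 0.43 ± 0.28 (SD, n = 4) with BTΔMAFF, and the highest BTWT mouse, at 0.14, lay below the lowest BTΔMAFF mouse, at 0.19. This contrast of 2 chains was chosen after the values were seen and is given without a test.

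Lamc1, the gamma chain common to most laminins (chr1:153218922-153332786), had values of -0.02, 0.00, -0.10, and -0.02 in BTWT and of 0.10, 0.59, 0.74, and 0.00 in BTΔMAFF. The BTWT mice lay close together, and the group difference came from BTΔMAFF replicates 2 and 3. It was -0.39 (standard error 0.17, 95% interval -0.79 to 0.01), with an unadjusted p = 0.0531 from limma, which was 0.0151 without BTΔMAFF replicate 4, 0.0330 without BTΔMAFF replicate 1, and 0.0337 without both arrays that stood apart. Its other probe set had a difference of -0.11. Lamb1, the beta chain that joins Lamc1 in many trimers, had values of 0.16, 0.44, 0.05, and -0.05 in BTWT and of -0.15, -0.12, -0.17, and 0.61 in BTΔMAFF, with a difference of 0.11 (standard error 0.20). Every BTWT mouse lay above 3 of the 4 BTΔMAFF mice, and BTΔMAFF replicate 4 lay above all; without it the difference was 0.30 with an unadjusted p of 0.0437, and without BTWT replicate 2 as well it was 0.20 with 0.0190. Lamb2, the beta chain that can take the place of Lamb1, had a difference of -0.13 (standard error 0.17). Lama5, the alpha chain of the main laminin of adult epithelial basement membranes, lay between -0.02 and 0.18 in all mice, with a difference of -0.04.

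**Figure D3:**
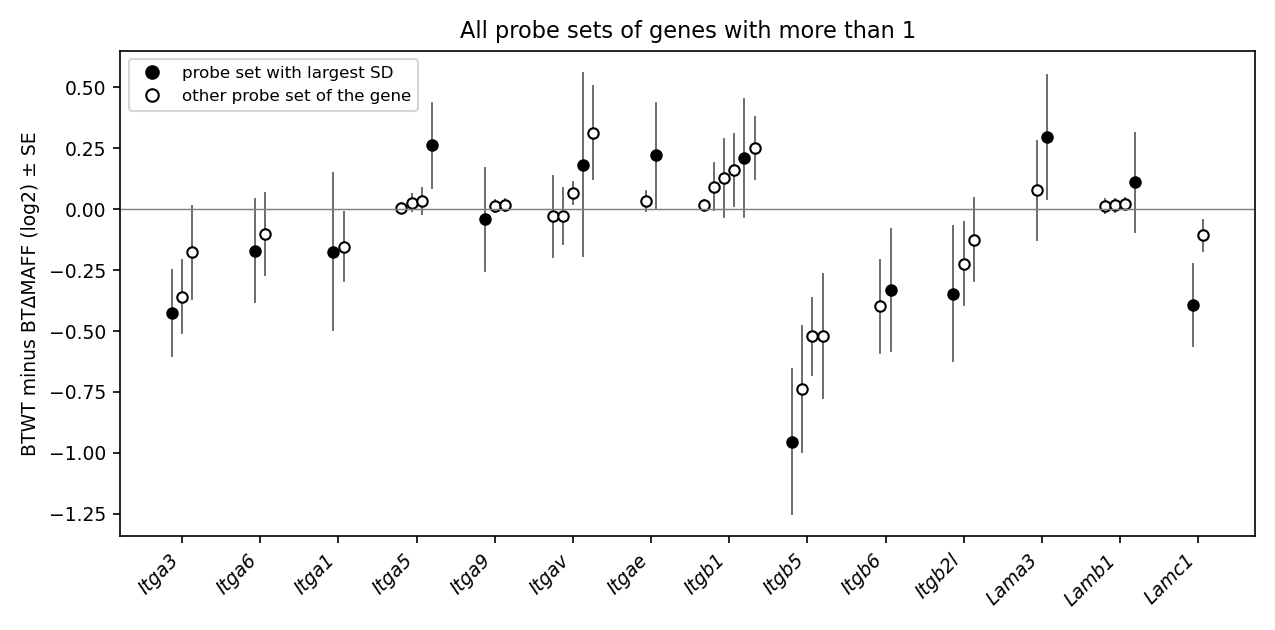
Difference between BTWT and BTΔMAFF (log2) with its standard error for every probe set of the 14 genes with an SD of 0.15 or more that have more than 1. All 4 probe sets of Itgb5 and all 3 of Itga3 lie below 0, all 6 of Itgb1 lie above 0, and those of Itgav and Itga9 lie on both sides.

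In 17 of the 35 genes the mice hardly differed. Their SD over the 8 arrays was under 0.15, a limit set after the values were seen, at a gap between 0.109 and 0.189. The same held for 44.2% of all genes, against 48.6% of these. They are Itga2b, Itga4, Itga7, Itga8, Itga10, Itgal, Itgam, Itgax, Itgb2, Itgb3, Itgb7, Itgb8, Lama1, Lama2, Lama4, Lama5, and Lamc3, which besides the leukocyte subunits include the platelet pair Itga2b and Itgb3 and the alpha chains Lama2 and Lama4 of muscle and vessels. Their values ran from -0.18 to 0.27, and their differences from -0.04 to 0.04. In 13 of the 17, the correlation with the medians of the 8 arrays over all probe sets was over 0.8 (across 8 arrays, median of the 17 genes 0.975), and they share those arrays and their scaling. With no detection call it is not known whether these genes were measured above background.

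**Figure D4:**
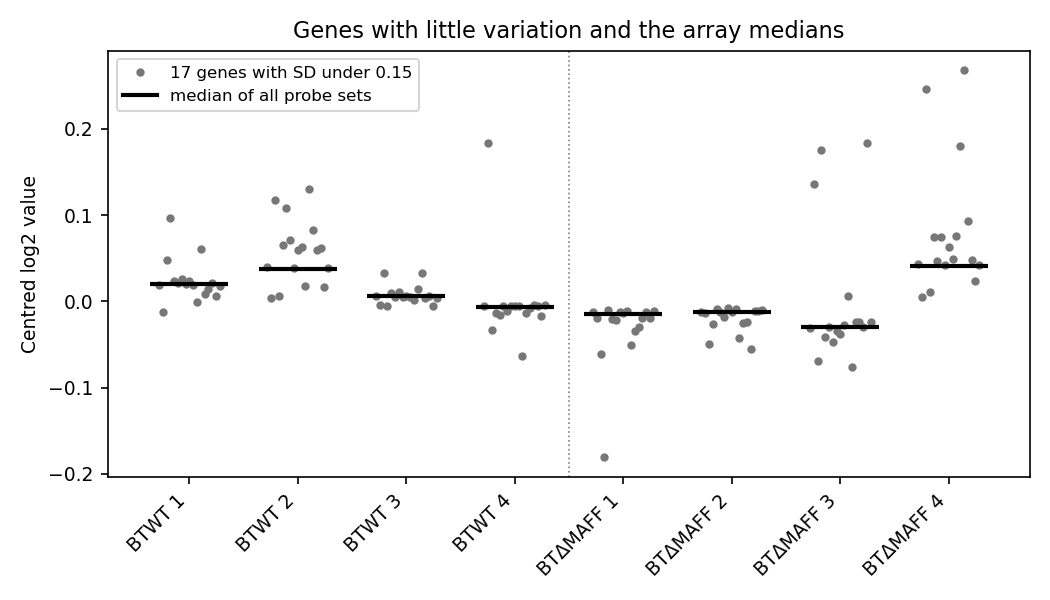
Centred log2 value of the 17 genes with an SD under 0.15 in each mouse (points) and the median of all probe sets on that array (short bars). Most points lie close to the bar of their array, which lies between -0.03 and 0.04, and the points run from -0.18 to 0.27.

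Over all 35 genes the median difference was 0.02, as it was over all 18193 genes. It was 0.02 for the 25 integrin genes, of which 9 were below 0 and 16 above, and 0.00 for the 10 laminin genes, of which 5 were below and 5 above. Of all 18193 genes, 6031 were below 0 and 12162 above, so most genes on these arrays lay above 0. With each array centred on its median, the median over all genes was 0.0009. The spread was wider on the lower side: the lowest difference was -0.95, of Itgb5, and the highest 0.29, of Lama3. It was also wider on that side over all genes, from -7.06 to 2.48. The mean of the 9 beta subunit genes lay between -0.28 and -0.05 in the BTWT mice and between -0.01 and 0.20 in the BTΔMAFF mice, while the mean of the 16 alpha subunit genes overlapped, at 0.00 to 0.08 and -0.02 to 0.05. The median of the same 9 beta subunit genes also overlapped, at -0.03 to 0.02 in the BTWT mice and -0.03 to 0.18 in the BTΔMAFF mice, and 4 of the 9 had differences above 0.

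Of 61 measured genes of integrin signaling, hemidesmosomes, basement membrane, and integrin ligands, 3 were lower and 1 was higher with BTWT at an unadjusted p under 0.05, against 3.37% of all genes lower and 2.35% higher, and 0 passed limma's adjusted p. Agrn, which encodes the basement membrane proteoglycan agrin and binds laminin, had the largest difference. Its values were -1.09, -0.72, -0.94, and -0.17 in BTWT and 1.14, 0.68, 0.17, and 0.92 in BTΔMAFF, with a difference of -1.46 (standard error 0.27), adjusted p = 0.291 and unadjusted p = 0.000925 from limma. Plec, which encodes plectin and ties Itgb4 to keratin filaments, had values of -0.65, -0.07, -0.38, and -0.36 in BTWT and of 0.07, 0.32, 0.46, and 0.78 in BTΔMAFF, with a difference of -0.77 (standard error 0.17, adjusted p = 0.457). Both probe sets of Agrn and all 3 of Plec were below 0, and in both genes no BTWT mouse reached any BTΔMAFF mouse.

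By list, the hemidesmosome and laminin receptor partners held 1 lower gene, Plec, and 1 higher, Cd81, of 9. Cd81, a tetraspanin, had a difference of 0.40 (standard error 0.16, unadjusted p = 0.0399 from limma) with overlapping groups, and it kept an unadjusted p under 0.05 in 8 of 19 alternatives and in 2 of the 8 that left out 1 mouse. Of 23 genes of integrin activation and focal adhesions, 1 was lower: Ilk, which encodes the integrin-linked kinase that binds beta subunit tails, at a difference of -0.31 (standard error 0.08, adjusted p = 0.577 from limma). Without both arrays that stood apart, Ilk had an unadjusted p of 0.0524. Of 17 other basement membrane genes, 1 was lower, Agrn. Of 12 other integrin ligands, 0 were lower and 0 higher.

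Some epithelial markers differed in the same direction. Of 9 markers, 3 were lower with BTWT at an unadjusted p under 0.05 and 0 were higher, against 3.37% and 2.35% of all genes. Differences were below 0 in 7 of the 9 and above 0 in 2, Cdh1 (0.11) and the sorting marker Epcam (0.10). Vil1, which encodes villin of the brush border, had a difference of -0.40 (standard error 0.10), Krt20, a keratin of mature surface cells, one of -0.32 (standard error 0.10), and Krt19, a keratin of simple epithelia, one of -0.22 (standard error 0.08), at that p in 11 of 19 alternatives. The mean of the 9 markers lay between -0.13 and -0.03 in BTWT and between 0.02 and 0.10 in BTΔMAFF. For the other cell types, the list means overlapped: leukocytes (11 genes) at -0.04 to 0.28 in BTWT and -0.04 to 0.15 in BTΔMAFF, intraepithelial lymphocytes (7 genes) at -0.01 to 0.43 and -0.03 to 0.07, fibroblasts and smooth muscle (11 genes) at -0.22 to 0.34 and -0.09 to 0.63, endothelium (6 genes) at -0.08 to 0.07 and -0.05 to 0.12, and enteric glia and neurons (5 genes) at -0.01 to 0.08 and -0.04 to 0.07. Of these genes, 1 reached an unadjusted p under 0.05: Pdgfrb, a receptor of pericytes and fibroblasts, at a difference of 1.16 (standard error 0.33), with 1 of its 2 probe sets above 0. Of the 11 fibroblast and smooth muscle markers, 6 had differences above 0 and 5 below. Those below were Col3a1 (-1.14, unadjusted p = 0.0523 from limma), Dcn (-1.03), Col1a1 (-0.77), Col1a2 (-0.36), and Tagln (-0.16). For Col3a1 and Dcn, 1 of 2 probe sets had that sign. BTΔMAFF replicate 2 was over 0.5 for Col1a1, Col1a2, Col3a1, and Dcn, 4 of the 11 fibroblast and smooth muscle markers, and BTWT replicate 4 was so for 3 of the 11, Col1a2, Dcn, and Pdgfrb. The part of the epithelial markers or of these fibroblast genes in the differences of Itgb4, Itgb5, Itga3, Lamb3, and Lamc1 was not tested.

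**Figure D5:**
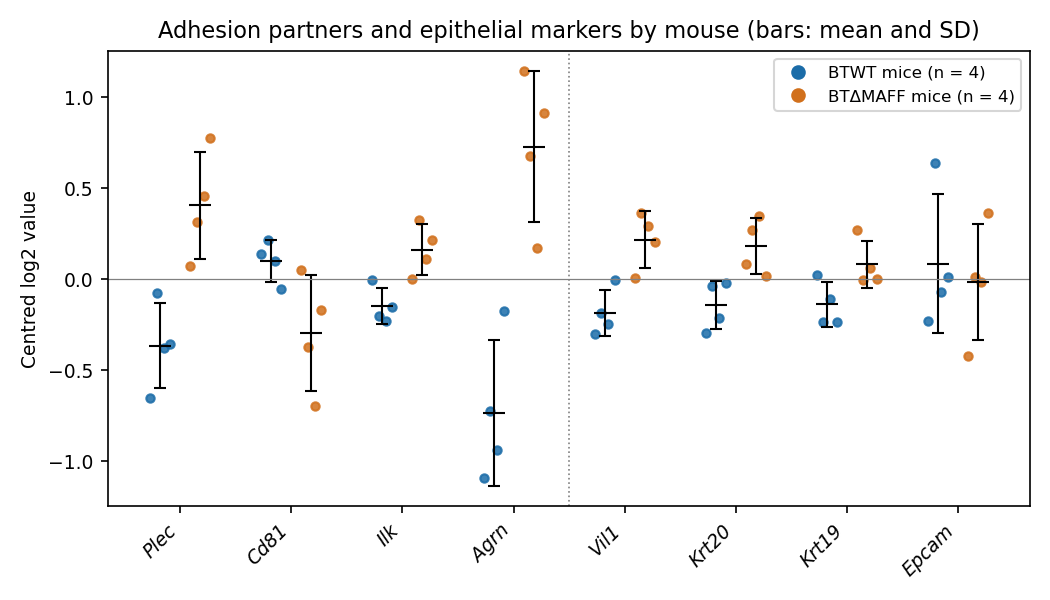
Centred log2 values of single mice (points) and group means with their SD (bars, n = 4) for the 4 adhesion genes at an unadjusted p under 0.05 (left of the dotted line) and for 3 epithelial markers and Epcam (right). Plec, Ilk, Agrn, Vil1, and Krt20 are lower in every BTWT mouse than in any BTΔMAFF mouse, and Epcam overlaps.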

How the data were processed

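Affymetrix mouse genome arrays of 8 samples were compared, 4 per group by their labels. The authors deposited log2 values from which the median of the 8 arrays had been subtracted for each probe set. Their methods name GeneSpring and the processing notes Affymetrix Expression Console. How background was corrected and arrays were normalized is not given in the sources used here, and the number of arrays limits the precision. Control probe sets (64) were removed, and limma 3.58.1 (R 4.3.3) was applied to the other 45037 (BTWT minus BTΔMAFF, no covariate, Benjamini-Hochberg adjustment over all of them). Of these, 34945 carry 1 gene in the array annotation, and all 35 genes described matched RefSeq by gene ID. Members, lists, and tests were chosen with earlier results of these data known, and the SD limit of 0.15 after the values were seen. Genes named with values in every mouse were, by rule, all members at an unadjusted p under 0.05 or with separate groups and the subunits of the main epithelial receptors and laminins. Of the partner lists, up to 4 genes each at that p were named, and of the markers Epcam, Ptprc, and those at that p. Other members were described by role, and Itgb2l, Gzma, Laptm5, Cdh1, and the collagen genes were named after their values were seen. The fit was tested on simulated data. 19 alternatives of the scaling, weights, test, arrays, or choice of probe set were run.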

Additional observations from a re-analysis of the deposited data

Results flagged for a closer look

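The 18 genes with an SD of 0.15 or more gave 36 groups of 4 mice, which were examined with Dixon's ratio. Its limit is passed by about 1 in 20 groups by chance. That rate does not hold here, because genes and probe sets were chosen for a large SD, which 1 outlying mouse can raise. The genes also share the same mice. In 6 of the 36 groups 1 mouse stood far from the other 3 by this ratio, and no excess over chance is read from that count. BTΔMAFF replicate 4 was such a mouse for Itga2 (-0.40, against -0.05 to 0.01 in the others), Itgb5 (-0.12, against 0.45 to 0.55), and Lamb1 (0.61, against -0.17 to -0.12). BTΔMAFF replicate 3 was one for Itga3 (0.80, against 0.04 to 0.11), BTΔMAFF replicate 1 for Itgb6 (-0.46, against 0.23 to 0.31), and BTWT replicate 3 for Itgae (0.91, against -0.04 to 0.01).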

How the results depend on the processing

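Under 19 alternatives, the 35 genes had 0 calls at an adjusted p under 0.05. Itgb5 kept its direction and an unadjusted p under 0.05 in all 19 and Itgb4 in 18, while Itga3 kept its direction in all 19 and that p in 7. The methods' t-test gave 1721 probe sets at that p and 0 adjusted, among all of them. With a further threshold of 2-fold, 0 members were lower. With array weights, 5 members were higher (0 without) and 22 partner genes were at that p (4 without), the laminin median was 0.033, and the differences were 0.11 for Itga9, -0.66 for Itgav, 0.060 for Lamb2, and 0.013 for Ptprc. The weights were largest for BTWT replicate 3 (4.68) and BTΔMAFF replicate 2 (4.36), and 10.1% of all genes were then lower and 16.7% higher. Without BTWT replicate 2 and BTΔMAFF replicate 4 together, 2 members were higher, 8 partner genes were at that p, and the differences were 0.060 for Itga9, -0.22 for Itgav, and 0.0053 for Ptprc; 4.47% of all genes were then lower and 7.55% higher. With only probe sets above the median SD, 2 partner genes were at that p, and the medians of all members, integrins, and laminins were -0.15, -0.17, and -0.13; fewer genes were tested there. Other choices of probe set gave -0.037 for Epcam (no _s or _x probe sets) and 0.0080 for Ptprc (mean of probe sets). For these changes the cause was not tested.

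With 1 mouse left out, 0 to 2 members were higher (2 without BTWT replicate 1 and 2 without BTΔMAFF replicate 4), and 3 to 8 partner genes were at that p (7 without BTΔMAFF replicate 1 and 8 without BTΔMAFF replicate 4). The laminin median ran from -0.020 to 0.034. The differences ran from -0.33 to 0.15 for Itga1, -0.16 to 0.15 for Itga9, -0.0089 to 0.31 for Itgae, -0.044 to 0.48 for Itgav, -0.083 to 0.23 for Epcam, and -0.023 to 0.013 for Ptprc. Arrays with the same replicate number correlated at 0.39, -0.04, 0.03, and -0.27 in their deviations from the group means, so the numbers were not taken as pairs. With the replicate number as a block, 4 members were lower (Itgb6 in addition), 0 were higher, and 3 partner genes were at that p.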
